A study of Mus musculus with 6 samples.

Results

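Germ cell genes that are mostly silent in adult body cells were followed in blood-forming cells with 1 intact copy of Dnmt3a. The 34 genes act in meiosis, in the piRNA pathway or in the making of sperm, and were taken by name. All 34 were found on the array, among 22103 named genes. Total RNA was measured on 3 arrays of wild-type KLS cells and 3 arrays of Dnmt3a+/- KLS cells from mice. KLS cells carry Kit and Sca-1, lack mature lineage markers, and hold the stem cells and multipotent progenitors. The age, sex and strain of the mice, the structure of the Dnmt3a allele, the cells in which it acts and any pooling of animals were not given in the sources used here. By its title, the study concerns how loss of 1 copy of Dnmt3a prepares these cells for myeloid malignancy.

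In most mammalian body cells, many germ cell genes have CpG-rich promoters that carry DNA methylation. Dnmt3a and Dnmt3b place such methylation, Dnmt1 copies it at each division, and a Polycomb complex with E2F6, MGA and MAX helps to keep a part of these genes off. They are therefore often used as a readout of lost DNA methylation. Methylation itself was not measured on these arrays.

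The promoters of the members are shown first, since CpG sites are what Dnmt3a acts on. RefSeq (GRCm38.p6) gave a window for 29 of the 34 genes, and the 250 bases before the start site were read. Not matched were Spo11, Tex11, Piwil2, Tdrd6 and Tex15. The 5 sequences below belong to the members with an unadjusted p under 0.05 (limma), with the filter described below or over all probe sets. Ddx43 is among them only through a probe set favoured by that filter, and its place here marks no clear difference. The sequences are printed 5′ to 3′ on the gene's strand with every CpG in capitals. They lie at chr14:55617916-55618165 (plus strand) for Rec8, chr9:78395527-78395776 (plus) for Ddx43, chr11:4441083-4441332 (minus) for Hormad2, chr10:88459337-88459586 (plus) for Sycp3 and chr13:112652311-112652560 (minus) for Ddx4.
Rec8: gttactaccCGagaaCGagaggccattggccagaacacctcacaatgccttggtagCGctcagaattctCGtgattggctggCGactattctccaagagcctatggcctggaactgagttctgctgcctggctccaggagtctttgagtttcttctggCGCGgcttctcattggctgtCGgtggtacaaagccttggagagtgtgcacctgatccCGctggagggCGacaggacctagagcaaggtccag
Ddx43: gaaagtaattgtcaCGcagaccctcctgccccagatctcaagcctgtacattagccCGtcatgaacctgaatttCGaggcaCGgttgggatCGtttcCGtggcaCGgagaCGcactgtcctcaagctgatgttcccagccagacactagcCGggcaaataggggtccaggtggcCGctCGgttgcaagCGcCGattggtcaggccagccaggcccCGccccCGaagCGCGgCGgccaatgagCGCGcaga
Hormad2: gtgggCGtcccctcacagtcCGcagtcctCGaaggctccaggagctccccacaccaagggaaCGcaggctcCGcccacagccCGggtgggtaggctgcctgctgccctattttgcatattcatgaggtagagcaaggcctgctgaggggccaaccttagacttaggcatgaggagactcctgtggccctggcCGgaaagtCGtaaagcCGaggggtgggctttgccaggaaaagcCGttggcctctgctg
Sycp3: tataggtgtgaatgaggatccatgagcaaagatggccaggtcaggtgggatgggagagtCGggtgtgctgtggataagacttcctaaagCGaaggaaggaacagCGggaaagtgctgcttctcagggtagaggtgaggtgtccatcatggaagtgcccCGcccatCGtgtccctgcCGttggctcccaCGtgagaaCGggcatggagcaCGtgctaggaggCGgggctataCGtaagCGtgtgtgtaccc
Ddx4: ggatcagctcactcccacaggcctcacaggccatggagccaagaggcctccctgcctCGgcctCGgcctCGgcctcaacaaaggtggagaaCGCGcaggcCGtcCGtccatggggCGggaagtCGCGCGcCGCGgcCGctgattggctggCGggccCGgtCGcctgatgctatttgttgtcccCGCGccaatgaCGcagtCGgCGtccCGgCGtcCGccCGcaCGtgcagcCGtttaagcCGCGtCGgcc

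The windows held 10 CpG in Rec8, 20 in Ddx43, 10 in Hormad2, 12 in Sycp3 and 31 in Ddx4. Over the 29 members the median was 16 CpG (range 5 to 40), against 10 over the first windows of 16923 measured genes. At least 10 CpG were present in 25 of 29 members (86.2%) and in 52.3% of all genes. The 4 members below that count were Sycp2, Stra8, Tdrd9 and Prdm9. Where a gene had several windows, the first listed was counted. Another window of Prdm9 held 13 CpG and another of Piwil4 held 0, and the windows of Tdrd1 held 11, 22 and 3. The haploid spermatid genes, which are made late in sperm formation, had a median of 1.5 CpG over 14 windows. The further germline genes, also of germ cell development, meiosis and the piRNA pathway, had a median of 11 CpG over 27 windows, and 59.3% held at least 10, close to all genes.

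Both strands were also searched for CACGTG, the E-box that MGA and MAX can bind, and for GGCGGGA, a motif of E2F6. Each motif was counted on its own, and a match of one can share at most 1 end letter with a match of the other. CACGTG stood in 13 of 29 member windows (44.8%), against 7.06% of all measured genes and 9.83% of those with at least 10 CpG. In the further germline list it stood in 5 of 27 windows (18.5%), and in the haploid spermatid list in 0 of 14. The 17 matches in members began 11 to 246 bases before the start site, 12 of them within 100 bases. Sycp3 held matches that began 43 and 64 bases before its start, and Ddx4 held 1 that began 29 bases before. GGCGGGA stood in 5 of 29 member windows (17.2%) and in 13.2% of all genes, or 22.3% of those with at least 10 CpG. A match describes these letters in this window and no binding.

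**Figure D1:**
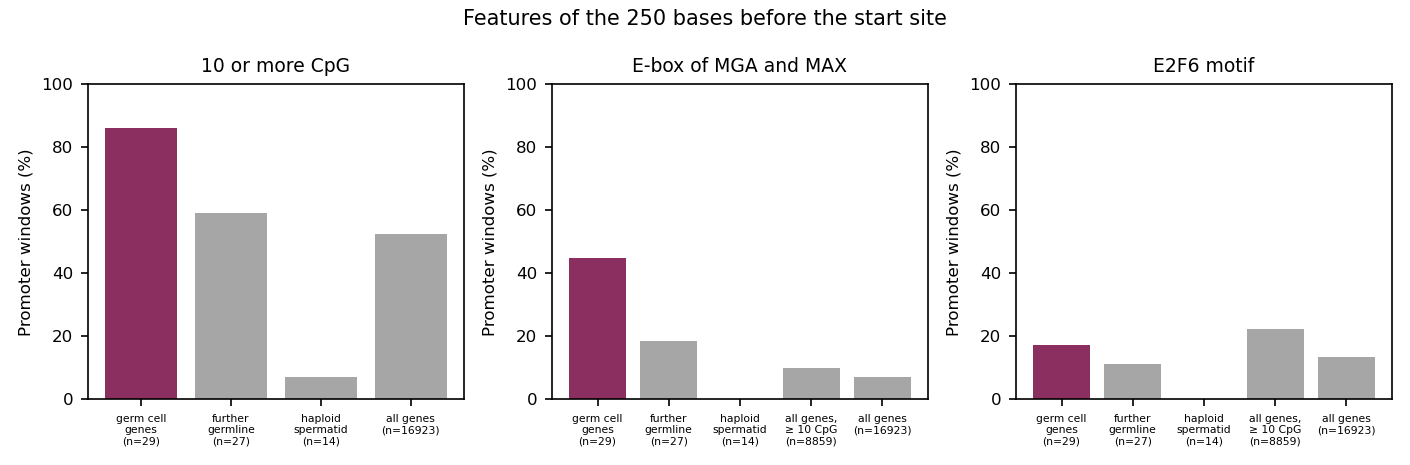
Share of promoter windows (percent, y axis from 0) that hold at least 10 CpG, the E-box or the E2F6 motif in the 250 bases before the start site, for the germ cell genes and the lists named on the x axis with their number of windows. The E-box bar of the germ cell genes stands at 44.8%, above the 7.06% of all genes, while the E2F6 motif stands at 17.2% and 13.2%.

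Dnmt3a, the targeted gene, stood at 8.51, 8.70 and 8.50 on the wild-type arrays and at 8.38, 8.20 and 8.20 with Dnmt3a+/-, so every Dnmt3a+/- array was lower (log2 difference -0.31, SE 0.12; adjusted p = 0.631, limma). Whether its probe sets lie in the deleted part of the gene is unknown here.

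Most probe sets of the germ cell genes were dim. The deposited intensities were put on a log2 scale, and probe sets were kept where the 6-array mean exceeded the table's median (log2 5.89). Of the 779 member probe sets, 218 passed (28.0%), against 69.4% of all named probe sets. For olfactory receptor genes, which serve smell, 18.4% passed. Asz1, a protein of the germline piRNA machinery, had 0 of 15 probe sets above the filter. The highest shares passed for Rec8 (21 of 27), Prdm9 (11 of 17), Spo11 (13 of 24) and Tdrkh (10 of 19). The share of Rec8, 77.8%, was above the 69.4% of all named probe sets, so Rec8 was not dim by this measure. In these bulk samples, fewer cells of a type and less RNA per cell cannot be told apart. Each gene was read over its filtered probe sets, which left 33 members, and over all of its probe sets, which kept all 34. Some members are given below in 1 version only, which is the filtered one unless stated. Of the 218 probe sets, 10 passed only through their Dnmt3a+/- mean and 8 only through their wild-type mean, and differences of those were favoured by the filter. The 10 were 1 each of Ddx43, Sycp2, Hormad2, Spo11, Piwil1, Piwil4, Mael, Tdrd6, Tex14 and Slc25a31. The 8 were 2 of Rec8 and 1 each of Ddx4, Sycp3, Spo11, Piwil1, Piwil2 and Tdrkh.

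No germ cell gene passed the test between genotypes. Of the 33 filtered members, 0 had an adjusted p under 0.05 (limma, Benjamini-Hochberg over 20059 genes), and so did 0% of all genes. At an unadjusted p under 0.05 there was 1 member higher in Dnmt3a+/- cells, Ddx43, where 2.92% of all genes were. Its only filtered probe set passed through its Dnmt3a+/- arrays, so this count was favoured by the filter and supports nothing. There were 2 lower, Rec8 and Ddx4, where 4.57% of all genes were. Of their filtered probe sets, 2 of 21 in Rec8 and 1 of 6 in Ddx4 passed only through their wild-type mean. The filter favoured the differences of those. The genotypes did not overlap for 2 members on the higher side (Ddx43, again favoured by the filter, and Tex101), beside 6.74% of all genes. On the lower side this held for 1, Rec8, beside 9.05% of all genes. With 1 array left out these counts ran from 1 to 5 members higher, 1 to 2 lower and 3 to 15 without overlap. The upper ends came without Dnmt3a+/- replicate 3, where 5 of 33 members and 3.98% of all genes were higher at that p. There, 12 members were higher and 3 lower without overlap, beside 15.5% and 16.3% of all genes. Without wild-type replicate 1 they were 9 and 1, beside 14.2% and 17.2%. With 1 array left out, 2.70% to 5.63% of all genes were lower at an unadjusted p under 0.05. Fewer arrays leave more genes without overlap by construction.

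Over all probe sets, again 0 of 34 members and 0% of 22103 genes had an adjusted p under 0.05 (limma). An unadjusted p under 0.05 was reached on the higher side by Hormad2 alone (2.95% of all genes) and on the lower side by Rec8, Ddx4 and Sycp3 (4.38%). In either direction these are 4 of 34 members, beside 7.32% of all genes. Genotypes did not overlap for 4 members on the higher side, Hormad1, Hormad2, Stk31 and Tex14, beside 6.26% of all genes. They did not overlap for the 3 members Rec8, Ddx4 and Sycp3 on the lower side, beside 8.96%. Differences leaned to the higher side in number and were small. With the filter 25 of 33 members were above 0 (median log2 difference 0.08), and 45.7% of all genes were (median -0.02). Without it 23 of 34 were (median 0.08), beside 45.8% of all genes.

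That lean moved with the level of the genes. Among all genes without the filter, the 7368 dimmest had a median difference of 0.08 with 67.0% above 0, and the 7368 brightest had one of -0.14 with 18.6% above 0. Of the 34 members, 31 lay among the dimmest, and their median was 0.10. After cyclic loess over all probe sets, an alternative added after seeing the data that evens out such level trends between arrays, 17 of 34 members were above 0 and the median was 0.00087. With the filter, cyclic loess left 25 of 33 above 0 and a median of 0.05. Dnmt3a+/- replicate 2 correlated least with the other arrays (mean r = 0.904 across genes, against 0.938 to 0.949 for the rest). Set against each gene's wild-type mean, the members' median was 0.14 on that array, 0.11 on Dnmt3a+/- replicate 1 and -0.02 on replicate 3 with the filter. The wild-type arrays stood at 0.07, -0.01 and -0.04, so the genotypes overlapped. With 1 array left out the median ran from 0.04 without Dnmt3a+/- replicate 2 (24 of 33 above 0) to 0.15 without Dnmt3a+/- replicate 3 (27 of 33). Without wild-type replicate 1 it was 0.13.

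**Figure D2:**
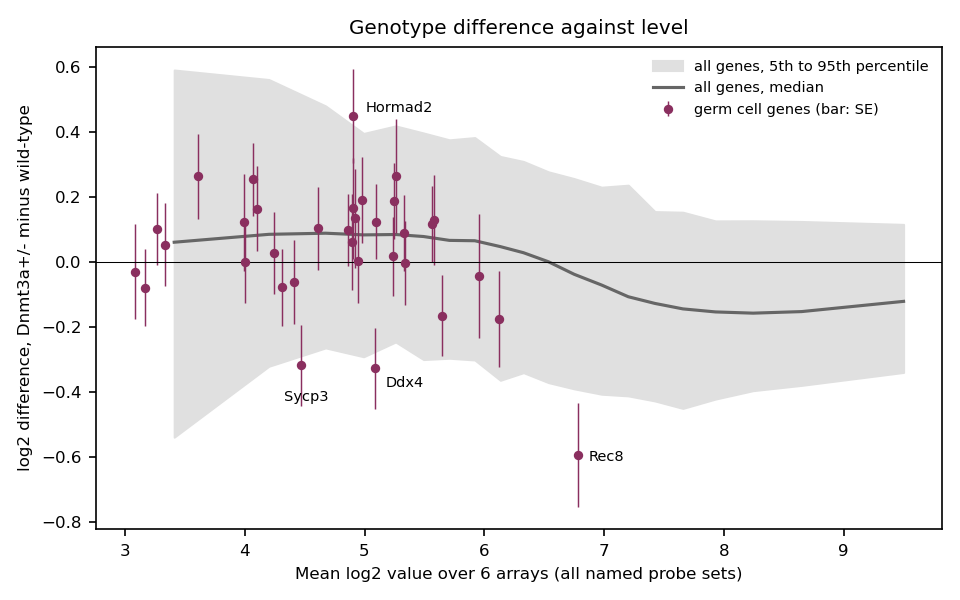
Each point is a germ cell gene over all its named probe sets, with the mean log2 value of the 6 arrays on the x axis and the log2 difference (Dnmt3a+/- minus wild-type, bar SE) on the y axis. The grey band spans the 5th to the 95th percentile of all genes in 20 level bins and the grey line their median; Rec8 at -0.59 lies furthest below the band, Ddx4 and Sycp3 just below it and Hormad2 just above it.

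**Figure D3:**
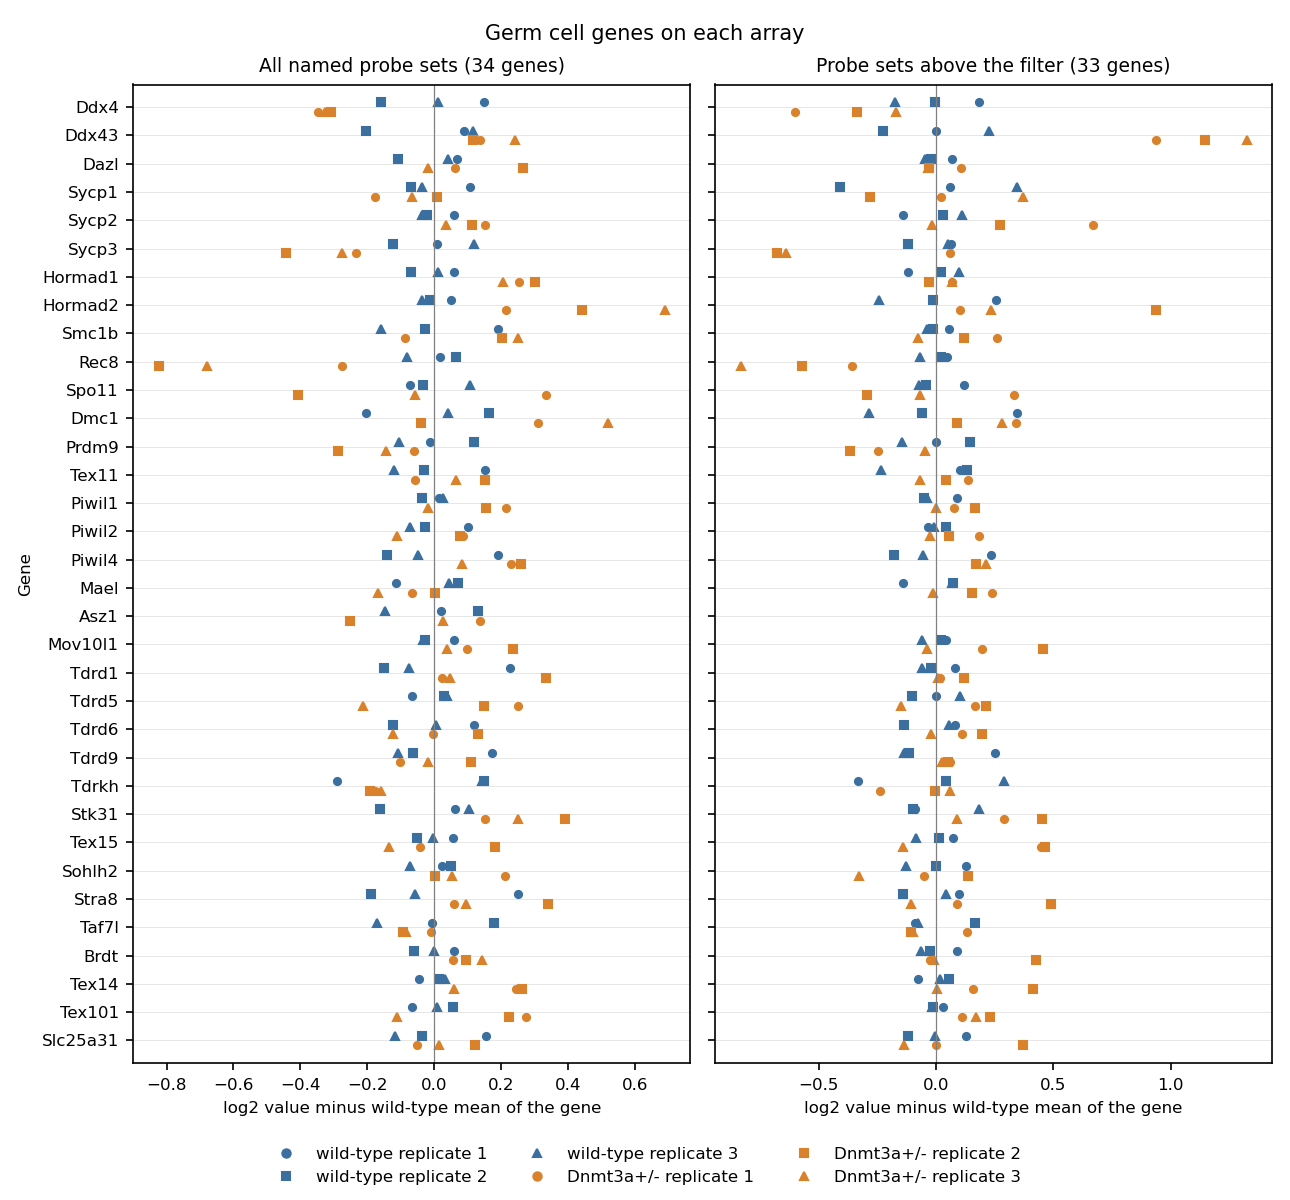
Value of every array minus the wild-type mean of the gene (log2, x axis) for each germ cell gene (y axis), over all probe sets on the left and over those above the filter on the right. Blue symbols are the 3 wild-type arrays and orange symbols the 3 Dnmt3a+/- arrays. The colours separate for Rec8 in both panels and for Ddx43 on the right, and overlap for most genes.

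Among the genes of meiotic chromosomes, Rec8 had the lowest value relative to wild-type. Rec8 is the meiotic kleisin subunit of cohesin, which holds sister chromatids together. Its filtered value was 7.64, 7.61 and 7.52 on the wild-type arrays and 7.23, 7.02 and 6.76 on the Dnmt3a+/- arrays. Every Dnmt3a+/- array thus lay below every wild-type array. The log2 difference was -0.59 (SE 0.14, 95% confidence interval -0.91 to -0.26, n = 3 per genotype), a fold of 0.666. The adjusted p was 0.631 (limma, unadjusted p = 0.00319), and an exact two-sided permutation test gave p = 0.1, which 3 against 3 arrays cannot go below. Over all 27 probe sets the difference was -0.59 (SE 0.16).

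Single probe sets of Rec8 mostly leaned the same way. Of its 21 filtered probe sets, 19 had a negative difference, from -1.77 to 0.18 over all 21. Genotypes did not overlap in 8 of the 21, all with Dnmt3a+/- lower, where 6.1% of all probe sets above the filter, named or not, did so. Among the 21, 2 passed only through their wild-type mean, and their differences were favoured by the filter. Over all 27 probe sets, 4 were above 0, beside 45% of all named probe sets. Lower without overlap were 11 of the 27, beside 6.82%. Probe set 5096570 ran 7.14, 8.45 and 7.99 across wild-type arrays against 6.28, 5.80 and 6.19 across Dnmt3a+/- arrays, a difference of -1.77 (SE 0.35). Others of like level, such as 4868896 (0.18, SE 0.22) and 4958334 (-0.06, SE 0.22), lay near 0. The probe sets of this gene therefore did not move as one. RefSeq lists no gene that overlaps Rec8. Leaving out any 1 array gave differences from -0.70 to -0.46, all with an unadjusted p under 0.05.

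Hormad2 and Hormad1 encode HORMA-domain proteins that mark unpaired meiotic chromosome axes. Over its 14 probe sets Hormad2 gave 4.73, 4.67 and 4.64 across wild-type arrays against 4.89, 5.12 and 5.37 across Dnmt3a+/- arrays. All Dnmt3a+/- arrays lay above all wild-type arrays. The difference was 0.45 (SE 0.15, 95% confidence interval 0.11 to 0.78, n = 3 per genotype; adjusted p = 0.668, limma). Of its 4 filtered probe sets, 1 passed only through its Dnmt3a+/- mean. Over the 4 the genotypes overlapped, with a difference of 0.43 (SE 0.23), and Dnmt3a+/- replicate 2 alone read 7.49. Without that array the filtered difference was 0.17, the lowest of the leave-one-out values, and over all probe sets it was 0.45.

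Hormad1 gave 4.001, 3.87 and 3.95 across wild-type arrays against 4.20, 4.24 and 4.15 across Dnmt3a+/- arrays over its 17 probe sets. These ranges do not meet, and the difference was 0.25 (SE 0.11). Its 3 filtered probe sets, however, gave 0.04 (SE 0.11) with overlapping genotypes, so the gap came from probe sets below the filter. Dmc1, the meiotic recombinase, gave 4.93, 5.29 and 5.17 across wild-type arrays against 5.44, 5.09 and 5.65 across Dnmt3a+/- arrays over all probe sets. It had a difference of 0.24 (SE 0.17) with the filter and 0.26 (SE 0.17) without, and overlapped in both. The other members of this group lay between -0.22 (Prdm9, the histone methyltransferase that places recombination sites) and 0.10 (Smc1b, a meiotic cohesin subunit) with the filter. For Prdm9 the genotypes did not overlap in 4 of 11 filtered probe sets, all with Dnmt3a+/- lower, while the gene's arrays overlapped. Of all probe sets above the filter, named or not, 6.1% were lower without overlap. With the filter at the 75th percentile Prdm9 stood at 0.15 (SE 0.14), on the other side of 0. Spo11, which makes the meiotic double-strand breaks, stood at -0.01 (SE 0.17), and Tex11, an X-linked protein of recombination, at 0.04 (SE 0.14).

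The synaptonemal complex zips paired chromosomes together. Its lateral-element protein gene Sycp3 gave 4.63, 4.50 and 4.75 across wild-type arrays against 4.39, 4.18 and 4.35 across Dnmt3a+/- arrays over 11 probe sets. No Dnmt3a+/- array reached the lowest wild-type array. The difference was -0.32 (SE 0.13; adjusted p = 0.668, limma). Over its 3 filtered probe sets it was -0.42 (SE 0.20), where Dnmt3a+/- replicate 1 at 8.15 lay within the wild-type range of 7.97 to 8.16. Of these 3, 1 passed only through its wild-type mean. With the median in place of the mean of the 3 probe sets the difference was 0.13 (SE 0.15), on the other side of 0. With array weights it was -0.13 (SE 0.19). RefSeq lists Chpt1 as overlapping Sycp3, and the array's signal of one was not separated from that of the other here. Chpt1 itself differed by -0.12 (SE 0.13).

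Sycp2, the partner of Sycp3 in the lateral element, gave 6.18, 6.35 and 6.43 across wild-type arrays against 6.99, 6.59 and 6.30 across Dnmt3a+/- arrays with the filter, which overlap. It differed by 0.31 (SE 0.18) with the filter and 0.10 (SE 0.11) over its 46 probe sets. Of its 4 filtered probe sets, 1 passed only through its Dnmt3a+/- mean. Sycp1, the transverse filament, lay at 0.04 (SE 0.23) and -0.08 (SE 0.12). The 3 genes of this structure thus showed no common direction.

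Among RNA helicases and RNA-binding proteins, Ddx43 had the highest difference of the members with the filter, and ranked below 7 others over all probe sets, Hormad2 first. Ddx43 encodes a DEAD-box helicase of the testis that is also known from tumours. Its filtered value was 5.88, 5.66 and 6.10 across wild-type arrays against 6.82, 7.03 and 7.20 across Dnmt3a+/- arrays. This value is 1 probe set, 5264211, the only one of 17 above the filter. Its wild-type mean of 5.88 lay just under the filter level of 5.89, so it passed through its Dnmt3a+/- arrays. Its difference of 1.14 (SE 0.16) was favoured by the filter and is given as a description, with no test.

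The test of Ddx43 is the one over all its probe sets. With all 17 the difference was 0.16 (SE 0.13; adjusted p = 0.735, limma) and the genotypes overlapped. Over the 16 other probe sets the mean difference was 0.10. Among them 5359184 gave 2.18, 3.56 and 3.71 across wild-type arrays against 5.18, 4.78 and 4.95 across Dnmt3a+/- arrays (1.82, SE 0.42). Probe set 4914636 differed by 0.91 (SE 0.31), whereas 5488466 differed by -0.59 (SE 0.24) and 4718938 by -1.15 (SE 0.93). In all, 9 of the 17 were above 0 and 8 below.

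Ddx4, the germ cell helicase known as Vasa, lay on the other side. Over its 21 probe sets it gave 5.40, 5.10 and 5.26 across wild-type arrays against 4.91, 4.94 and 4.93 across Dnmt3a+/- arrays. The Dnmt3a+/- arrays were close to each other and all below wild-type, with a difference of -0.33 (SE 0.12; adjusted p = 0.668, limma). Over 6 filtered probe sets it was -0.37 (SE 0.15), with overlapping genotypes, and 1 of the 6 passed only through its wild-type mean. With a filter at the 75th percentile of the table the difference was 0.086, with 1 probe set left. Probe set 5297728, below the filter, had the lowest difference (-1.89, SE 0.57), and 4628005, the brightest, is that 1 probe set. Dazl, an RNA-binding protein of early germ cells, gave 7.69, 7.60 and 7.58 across wild-type arrays against 7.73, 7.60 and 7.59 across Dnmt3a+/- arrays. These overlap, with a difference of 0.01 (SE 0.11, 95% confidence interval -0.23 to 0.26) over 3 filtered probe sets.

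**Figure D4:**
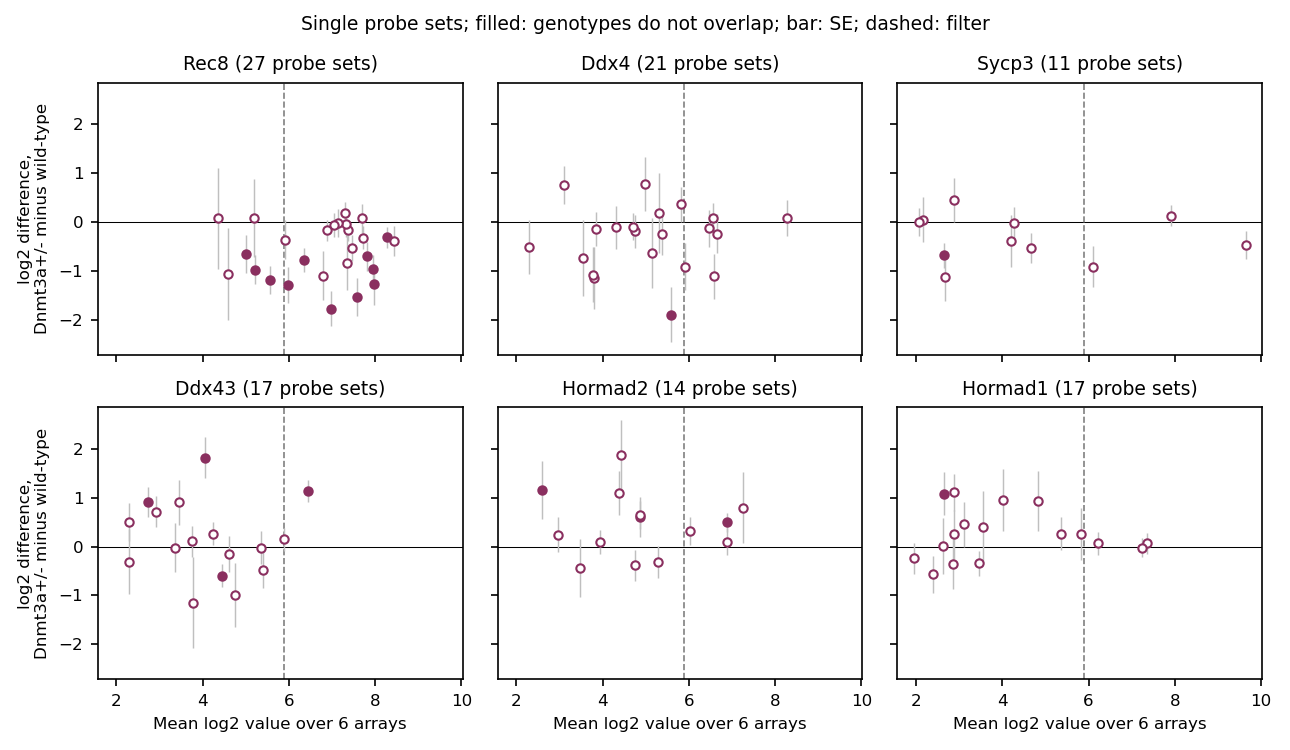
Single probe sets of 6 germ cell genes, with mean log2 value over the 6 arrays (x axis) and log2 difference, Dnmt3a+/- minus wild-type (y axis, bar SE). Filled points have genotypes that do not overlap and the dashed line is the filter level of 5.89; filled points below 0 are most numerous in Rec8, and 1 filled point of Ddx43 lies right of the line.

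The piRNA pathway silences transposons in germ cells through Piwi proteins and their Tudor-domain partners. Of its 12 filtered members, 11 had a positive difference, beside 45.7% of all filtered genes and 64.6% of the 6687 dimmest of them. The median was 0.09 and the range -0.06 to 0.28, and 0 members had an unadjusted p under 0.05. In Piwil1, Piwil4, Mael and Tdrd6, 1 filtered probe set each passed only through its Dnmt3a+/- mean, which favoured higher values. In Piwil1, Piwil2 and Tdrkh, 1 each passed only through its wild-type mean, which favoured lower values. Over all probe sets 9 of 13 members were positive, beside 45.8% of all genes and 67.0% of the 7368 dimmest. The median there was 0.02. The Piwi proteins lay at 0.08 (SE 0.11) for Piwil1, 0.07 (SE 0.11) for Piwil2 and 0.18 (SE 0.13) for Piwil4. The Tudor genes lay at 0.05 (SE 0.11) for Tdrd1, 0.08 (SE 0.13) for Tdrd5, 0.09 (SE 0.12) for Tdrd6 and 0.05 (SE 0.13) for Tdrd9. Tdrkh, the Tudor protein that anchors Piwi proteins at mitochondria, was the 1 negative filtered member at -0.06 (SE 0.17). The helicase gene Mov10l1 stood at 0.20 (SE 0.14), Mael at 0.13 (SE 0.12) and Tex15 at 0.26 (SE 0.18). Of Mael's 3 filtered probe sets, 1 was above 0, at 0.51, and it passed only through its Dnmt3a+/- mean. Over all probe sets Mael stood at -0.08 (SE 0.12), Tdrkh at -0.18 (SE 0.15) and Tdrd9 at -0.004 (SE 0.13). In that version Tex15 stood at 0.00039 (SE 0.13), Tdrd6 at 0.002 (SE 0.13) and Mov10l1 at 0.12 (SE 0.12). Asz1, measured only without the filter, stood at -0.03 (SE 0.15).

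Stk31, a Tudor-domain kinase-like gene of the testis, had the highest value of this group. Its 2 filtered probe sets gave 7.82, 7.82 and 8.10 across wild-type arrays. Dnmt3a+/- replicates 1 and 2 stood at 8.20 and 8.36, above these, and replicate 3 lay within the wild-type range. The difference was 0.28 (SE 0.14). Over all 26 probe sets the arrays did not overlap, at 3.54, 3.31 and 3.58 across wild-type arrays against 3.63, 3.87 and 3.73 across Dnmt3a+/- arrays (0.26, SE 0.13). Among its dim probe sets, 5568039 differed by 2.26 (SE 0.67) and 5533006 by -0.71 (SE 0.37), the ends of the range. Of the 26, 14 were above 0 and 12 below, with genotypes not overlapping in 4 on the higher side and 1 on the lower. Of all named probe sets, 45% were above 0, and 4.7% did not overlap on the higher side and 6.82% on the lower. RefSeq lists the predicted gene Gm17060 as overlapping Stk31.

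Genes of meiotic entry and germ cell transcription stayed within 0.16 of wild-type in the filtered values. Stra8, the retinoic acid target that starts meiosis, lay at 0.16 (SE 0.17), and Brdt, a testis bromodomain protein, at 0.13 (SE 0.15). Taf7l, a testis subunit of the basal transcription machinery, lay at -0.02 (SE 0.13), and Sohlh2, a transcription factor of spermatogonia, at -0.08 (SE 0.15). Over all probe sets Sohlh2 lay at 0.09 (SE 0.12), on the other side of 0. None of these 4 had genotypes that did not overlap in either version.

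Of the other testis proteins, Tex101, a surface protein of germ cells, gave 7.94, 7.90 and 7.89 across wild-type arrays against 8.02, 8.14 and 8.08 across Dnmt3a+/- arrays over 2 filtered probe sets. The genotypes did not overlap, though the gap was small (0.17, SE 0.10, 95% confidence interval -0.06 to 0.40). Over its 10 probe sets they overlapped (0.13, SE 0.14). Tex14, which builds the bridges between germ cells, gave 5.10, 5.16 and 5.18 across wild-type arrays against 5.39, 5.41 and 5.21 across Dnmt3a+/- arrays over 39 probe sets. That is a difference of 0.19 (SE 0.12) with no overlap, and with the filter 0.19 (SE 0.13) with overlap. RefSeq lists 9 genes that overlap Tex14, among them small nuclear and nucleolar RNA genes. Slc25a31, the ADP/ATP carrier of sperm, stood at 0.08 (SE 0.15).

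Single probe sets were read in both versions. Of the 218 above the filter, 128 had a difference above 0, beside 49.7% of all probe sets above the filter. Shares above the filter are over 628415 probe sets, of which 221209 carry 1 gene symbol. Genotypes did not overlap with Dnmt3a+/- higher in 13 (5.96%), beside 6.31% of all probe sets above the filter. With Dnmt3a+/- lower they were 15 (6.88%), beside 6.1%, and 8 of these belonged to Rec8. At an unadjusted p under 0.05 there were 19, beside 6.21% of all probe sets above the filter, with 7 higher (3.21%, beside 2.8%) and 12 lower (5.50%, beside 3.41%), 7 of the lower ones in Rec8. Without the filter, 430 of 779 had a difference above 0, beside 45% of all named probe sets. Without overlap, 48 were higher (6.16%, beside 4.7% of named probe sets) and 36 lower (4.62%, beside 6.82%). None passed after adjustment over all named probe sets (limma, smallest adjusted p = 0.875, 5.39% of all at an unadjusted p under 0.05). At that unadjusted p 32 were higher (4.11%, beside 2%) and 30 lower (3.85%, beside 3.38%). Probe sets of 1 gene share its RNA and are not replicates.

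The members' spread between arrays was no larger than that of other genes in these medians. The within-genotype SD had a median of 0.17 over the 33 filtered members and 0.17 over all genes. It ran from 0.0449 for Tex101 to 0.36 for Hormad2. Over all probe sets it was 0.12 for the members and 0.19 for all genes. Differences by CpG content were small: the 25 members with at least 10 CpG had a median of 0.10 over all probe sets, the 4 with fewer one of 0.05. With the filter the order was reversed, at 0.08 for 24 members and 0.10 for 4. Over all probe sets the corresponding medians of all genes were -0.08 and 0.04. The 13 members with CACGTG had a median of 0.03 and the 16 without it one of 0.11, with overlapping ranges.

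Other germline genes gave a like picture. Of 28 filtered genes in the further germline list, 18 had a positive difference (median 0.04), with 1 at an unadjusted p under 0.05 on the higher side and 0 on the lower (2.92% and 4.57% of all genes). That gene, Gtsf1, a piRNA pathway protein, differed by 0.38 (SE 0.14; adjusted p = 0.631, limma). Of 15 haploid spermatid genes, 11 were positive (median 0.17), and Smcp, a mitochondrial capsule protein of sperm, differed by 0.52 (SE 0.14; adjusted p = 0.631, limma). Above 0 were 45.7% of all filtered genes. Over all probe sets the 16 spermatid genes had a median of 0.11 and a lowest difference of -0.37. At an unadjusted p under 0.05 (limma), 1 of them was higher and 1 lower, beside 2.95% and 4.38% of all genes. Without overlap 1 was higher and 2 lower, beside 6.26% and 8.96% of all genes. In neither list did a gene pass over all genes. The genes that repress germline genes lay mostly below wild-type: 16 of 22 were negative (median -0.10), 0 passed, and 3 were lower at an unadjusted p under 0.05. Of all genes, 10902 of 20059 were negative and 4.57% were lower at that p. These were Dnmt3a at -0.31 (SE 0.12), Dnmt3b at -0.34 (SE 0.14) and the histone methyltransferase gene Ehmt2 at -0.25 (SE 0.10). These 3, like most of the list, lie among the 6686 brightest filtered genes. Those had a median difference of -0.12, and only 23.4% of them were above 0.

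As a check of the label, Kit gave 10.6 to 10.8 and Ly6a, which encodes Sca-1, 8.30 to 8.66 on the 6 arrays. The 6 measured KLS markers differed by -0.32 to 0.06. Of the markers of other cells, Cd79a of B cells differed by 0.71 (SE 0.31), S100a8 of granulocytes by 0.43 (SE 0.29) and Itgam by -0.40 (SE 0.22), and Ly6g, with no probe set above the filter, by 0.32 (SE 0.14), all over all probe sets. The T and NK cell markers differed by -0.18 to 0.21 and Alas2 of red cells by -0.03. The summed log2 level of the B cell markers was 9.77 to 11.2 in wild-type and 10.7 to 11.8 in Dnmt3a+/- cells. For granulocyte and monocyte markers it was 27.8 to 29.8 and 28.7 to 29.8, and for T and NK cell markers 20.5 to 21.2 and 20.8 to 21.3. Their part in the values of the germ cell genes was not tested.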

How the data were processed

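Each of the 6 arrays reads 1 sample of total RNA, amplified as whole-transcript cDNA from 20 ng and labelled with biotin, per the labels' protocols. The authors deposited intensity values made with RMA in Partek per the submitters' processing notes, with settings unknown here. The values ran from 1.84 to 22239 on a linear scale, so log2 was taken. Probe sets with exactly 1 gene symbol in the platform annotation (318760 of 1256831) were used, and older symbols were updated through RefSeq (GRCm38.p6). Only the shares of single probe sets above the filter also cover those without 1 symbol. A gene was the mean log2 value of its probe sets, either those above the table median (20059 genes) or all (22103).

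The test was limma's lmFit with eBayes (version 3.58.1, R 4.3.3), without covariates, on all genes at once and with Benjamini-Hochberg adjustment. Single genes were also compared with an exact permutation test over arrays. In simulated data made from the 20059 genes, 95.4% of genes changed by 2 log2 units and 65.3% of those changed by 1 were recovered at adjusted p 0.05 for this comparison. The noise was drawn for each gene on its own, without the level trend or deviations shared by an array, so recovery may be overstated. Member differences over all probe sets ran from -0.59 to 0.45, smaller than the sizes simulated. Per the labels it is unclear whether each array is its own animal, and the spread behind every p-value is that between these 6 samples and may be technical. Precision is limited by the number of arrays. Arrays were not paired by replicate number in the test, and the labels do not say whether they are paired. Alternatives changed the filter, the summary over probe sets, the normalization, the pseudocount, the fit and the arrays kept. Members and gene lists were chosen with earlier results of these data known. Given in full were members with an unadjusted p under 0.05 or non-overlapping genotypes in either version, the 4 with the highest filtered level, and the 3 largest differences in each direction in either version; further genes needed an unadjusted p under 0.05.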

Additional observations from a re-analysis of the deposited data

How the results depend on the processing

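Under every alternative run, 0 members passed an adjusted p of 0.05, and the members' median stayed within 1 SD of the array medians except over all probe sets after cyclic loess, a setting chosen after seeing the data (0.00087 from 0.08). Rec8 was negative with an unadjusted p under 0.05 in all 18 settings (-0.70 to -0.38), although never past the adjusted threshold. Ddx4 turned sign with the filter at the 75th percentile (0.086), as did Prdm9 (0.15), and Sycp3 with the median of probe sets (0.13). Ddx43 stood at 0.16 over all probe sets and had no probe set left at the 75th percentile. It is 1 of the higher members counted below in the main version, cyclic loess, array weights and each fit without 1 array. There it rests on the probe set favoured by the filter and supports nothing. Members higher at an unadjusted p under 0.05 were 1 in the main version, 0 at the 75th percentile, 3 after cyclic loess and 4 with array weights, and 1 to 5 with 1 array left out. Of all genes 2.92%, 2.89%, 3.26% and 6.27% were higher in the first 4 of these, and 1.91% to 3.98% with 1 array left out. Members lower were 2, then 1 at the 75th percentile, and 1 to 2 with 1 array left out. Of all genes 4.57% and 4.45% were lower in the first 2 of these, and 2.70% to 5.63% with 1 array left out. Members without overlap were 3, then 7 over all probe sets, 9 with the median of probe sets, and 3 to 15 with 1 array left out, since fewer arrays overlap less often. Of all genes 15.8%, 15.2% and 13.9% were without overlap in the first 3, and 22.5% to 31.8% with 1 array left out. Without Dnmt3a+/- replicate 3 the counts were 5 higher and 15 without overlap, and without wild-type replicate 1 they were 3 and 10. Without wild-type replicate 3 they were 2 and 6, and without Dnmt3a+/- replicate 1 they were 2 and 5. The count of lower members was 1 without wild-type replicate 1 or 2 or Dnmt3a+/- replicate 2. Over all probe sets without Dnmt3a+/- replicate 2 there were 10 members without overlap (22.0% of all genes) and 2 higher (2.65%). After cyclic loess over all probe sets there were 8 without overlap (11.8%). In the first of these 1 gene passed, Olfr811, which rests on 1 probe set and is no member. The cause was not tested. With the replicate number as a block, 1 member was higher (Ddx43, favoured by the filter) and 2 were lower (Rec8 and Sycp3). Of all genes, 2.56% were higher and 3.79% lower in that fit. Deviations of same-numbered arrays correlated at -0.05, -0.09 and 0.11. Those of differently numbered arrays ran from -0.17 to 0.17, so these values give no evidence of pairing and cannot exclude it.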

Other observations

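Genes next to the members were read off the RefSeq order after the values were seen. Irf9, a DNA-binding protein of the interferon response, is the measured gene listed just before Rec8. It differed by -0.47 (SE 0.16; adjusted p = 0.631, limma), with every Dnmt3a+/- array below every wild-type array, as for 9.05% of all genes. On the other side of Rec8, Ipo4 stood at 0.01 (SE 0.11). Rnf31, beyond Irf9, stood at -0.03 (SE 0.11), and Tm9sf1, beyond Ipo4, at -0.10 (SE 0.13). The low values at this place were thus those of Rec8 and Irf9 among these 5 genes.

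Beside Ddx4 lie the cytokine receptor genes Il31ra and Il6st on one side and Slc38a9 on the other. Il31ra differed by -0.42 (SE 0.14) and Il6st by -0.62 (SE 0.27), both without overlap between genotypes, and Slc38a9 differed by -0.32 (SE 0.16) with overlap. Plpp1, the next gene, stood at 0.12 (SE 0.10), with every Dnmt3a+/- array higher. No neighbour passed over all genes (limma, adjusted p = 0.631 for the first 3). The measured neighbours of Ddx43 lay between -0.15 (Mto1) and 0.22 (Dppa5a). Those of Hormad2 lay between -0.24 (Mtmr3) and 0.12 (Osm), and those of Hormad1 between -0.31 (Ctss) and 0.06 (Ctsk). Those of Sycp3 lay between -0.12 (Chpt1) and 0.24 (Mybpc1). Of these, Mtmr3 and Gnptab, beside Sycp3, were lower without overlap, and Mybpc1 was higher without overlap. Among all genes 9.05% were lower and 6.74% higher without overlap.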
